A study of Danio rerio with 3 samples.

Results

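The genes of oxidative phosphorylation were followed across cell clusters of the adult zebrafish heart before and after loss of cardiomyocytes. Members were chosen by symbol alone: every row of the expression table named as a mitochondrial-encoded mt-nd, mt-co, mt-cyb or mt-atp gene, or as an nduf, sdh, uqcr, cox4 to cox8 or atp5 gene, with the ndufaf assembly factors left out. The rule found 114 of the 26320 genes in the table. The mitochondrial genome carries 13 of them, with 7 in complex I, 1 in complex III, 3 in complex IV and 2 in complex V. The nuclear genome carries the other 101, of which 38 were assigned to complex I, 6 to complex II, 8 to complex III, 25 to complex IV and 20 to complex V. The remaining 4 are sdhaf genes, assembly factors of complex II, and are given apart, which leaves 97 nuclear members in the sums below. Genes named ndufa4 were placed in complex IV, and atp5s and ATP5SL carry the atp5 name without being core subunits of the ATP synthase. Of the 114 members, 109 had at least 1 unique molecular identifier (UMI, a tag that counts a captured RNA molecule once) and 94 had at least 100 UMIs. The 5 members without a UMI were ndufa9b, ndufa13, SDHB (2 of 2), NDUFA4L2 (1 of 2) and ATP5J2. Together the members held 114522 of the 2706316 UMIs in the table.

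Oxidative phosphorylation passes electrons from NADH and succinate along complexes I, II, III and IV of the inner mitochondrial membrane to oxygen, and the proton gradient that this builds drives ATP synthesis by complex V. Complex II is encoded in the nucleus alone, whereas the other complexes are assembled from subunits of both genomes. Cardiac muscle is dense in mitochondria, and several nuclear subunits of complex IV exist as paralogs with tissue-biased expression in mammals.

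The libraries came from adult fish of strain AB aged 5 to 12 months, and 1 library was made for each of days 0, 3 and 7. Each library pooled cells of 6 hearts, 3 from males and 3 from females, which had been digested as 2 sets of 3. Day 0 hearts were uninjured and taken before any metronidazole, and those of days 3 and 7 were taken after ablation of ventricular cardiomyocytes with a 48-hour bath in 5 mM metronidazole and 0.1% DMSO. The protocols list wild-type AB, hsWnt8:GFP, hsDKK1:GFP and vmhc:mCherry-NTR fish, in the last of which the promoter of a ventricular myosin gene drives a nitroreductase that turns metronidazole toxic, but they do not state which line gave these libraries. No vehicle-treated group was analysed here, so drug, injury, day and library cannot be told apart. With 1 library per day no difference between days or clusters has a replicate check, and no test was made. All intervals are exact 95% intervals that cover counting error only.

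The table held 272, 114 and 368 cells at days 0, 3 and 7, with 857410, 493660 and 1355246 UMIs and median depths of 2677, 3260.5 and 3124.5 UMIs per cell. For day 3 the labels state 141 cells. A single barcode occurred in 2 libraries. Cells were grouped by the authors' deposited clusters. Clusters 0, 2, 3 and 6 were endothelial-like by their markers, cluster 1 was mural-like, cluster 4 fibroblast-like and cluster 5 cardiomyocyte-like. The 27 cardiomyocyte markers summed to 180181 CPM (UMIs per 1000000 UMIs of the group) at day 0 and 144762 CPM at day 7 in cluster 5, and to between 2348 and 54819.5 CPM in the other groups. At day 0 the defining ventricular marker vmhc was at 0 in cluster 5, while its relative vmhcl was at 2537 CPM and the myosin light chain gene myl7 at 66585 CPM. Cardiomyocyte-like cells were captured at days 0 and 7, with 18 and 30 cells, and not at day 3. Groups under 10 cells were not compared. Several symbols differ only by a paralog suffix, and how reads shared between near-identical copies were counted is not given in the sources used here, so the split between such copies is uncertain.

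RNA of the 13 mitochondrial-encoded genes was lower at day 7 than at day 0 in each of the 3 clusters that could be compared, while the nuclear members summed to between 0.999 and 1.22 times their day 0 level. In the endothelial-like cluster 0 the mitochondrial-encoded genes stood at 24741 CPM (95% interval 24048 to 25449) in 72 day 0 cells, at 14402 CPM in 16 day 3 cells and at 6462 CPM (6273 to 6654) in 193 day 7 cells. In the mural-like cluster 1 they stood at 21232 CPM in 88 day 0 cells and at 6585 CPM in 61 day 7 cells. In the cardiomyocyte-like cluster 5 they stood at 79690.5 CPM (77167 to 82276) at day 0 and at 23409.5 CPM (22484 to 24363) at day 7. The intervals of days 0 and 7 were apart in all 3 clusters. The day 7 level was 0.261 times the day 0 level in cluster 0 (0.251 to 0.272), 0.310 times in cluster 1 (0.292 to 0.329) and 0.294 times in cluster 5 (0.279 to 0.309).

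The nuclear members did not follow this order. In cluster 0 they summed to 21921 CPM at day 0 and 21907 CPM at day 7, a ratio of 0.999 (0.966 to 1.03). In cluster 1 the sums were 21462 and 21843.5 CPM, a ratio of 1.02 (0.98 to 1.06). In cluster 5 they were 104464 CPM (101572 to 107418) and 127902 CPM (125726 to 130106), a ratio of 1.22 (1.18 to 1.27). The UMIs of the mitochondrial-encoded members divided by those of the nuclear members therefore stood at 1.13 in cluster 0, 0.989 in cluster 1 and 0.763 in cluster 5 at day 0, and at 0.295, 0.301 and 0.183 at day 7. Cells with more UMIs from the mitochondrial genome than from the nuclear members made up 153 of 272 at day 0, 24 of 114 at day 3 and 9 of 368 at day 7, or 56.2%, 21.1% and 2.45%.

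**Figure D1:**
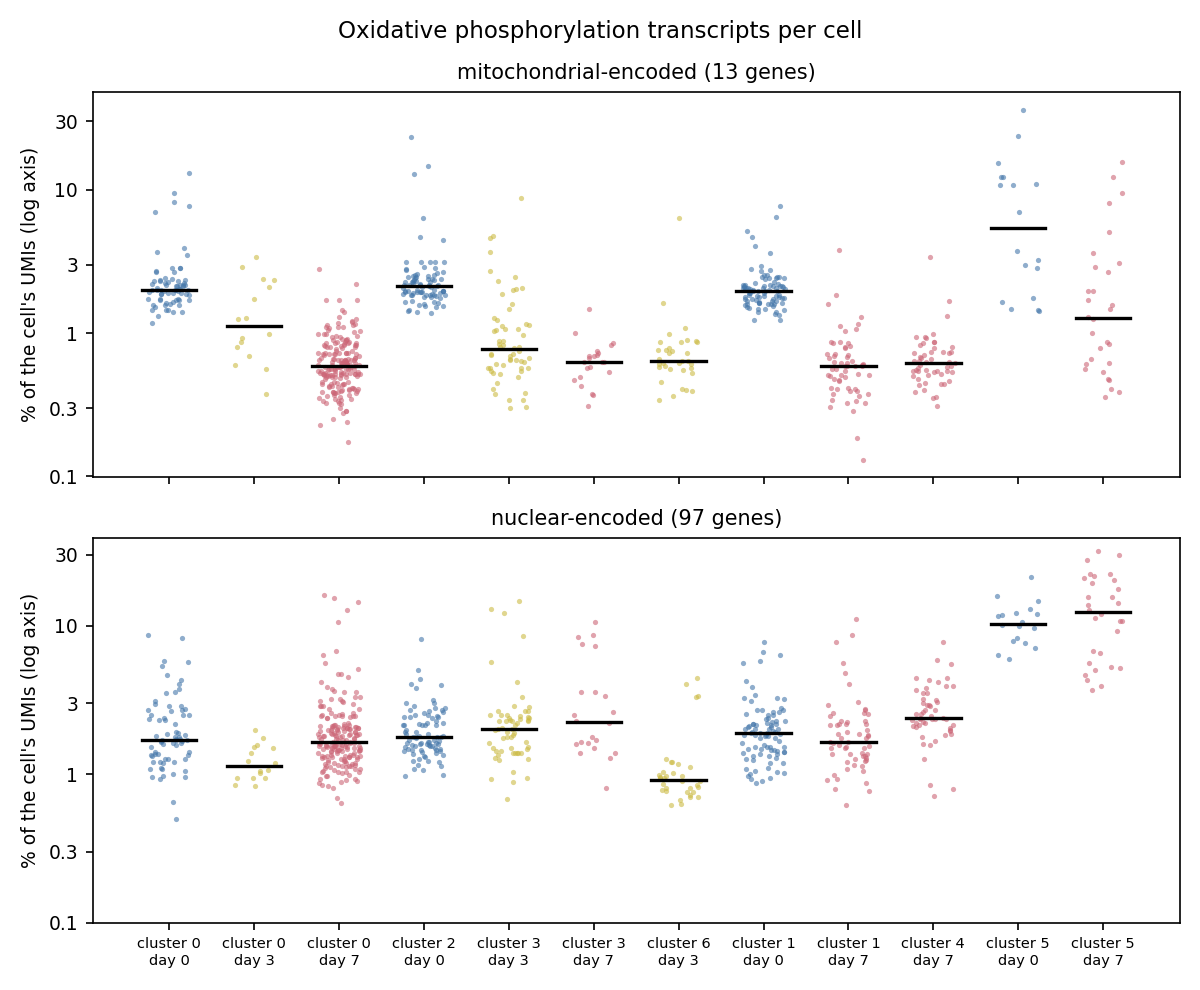
Percent of each cell's UMIs (log axis) held by the 13 mitochondrial-encoded genes and by the 97 nuclear members, by cluster and day; points are cells and the line is the median. The mitochondrial medians are 2.00% at day 0 and 0.592% at day 7 in cluster 0 and 5.35% and 1.28% in cluster 5, while the nuclear medians are 1.71% and 1.64% in cluster 0 and 10.3% and 12.3% in cluster 5.

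The same order held for the median cell of each cluster. The median cell of cluster 0 gave 2.00% of its UMIs to the mitochondrial-encoded genes at day 0 (quartiles 1.72% and 2.32%), 1.12% at day 3 and 0.592% at day 7. The median cell of cluster 1 gave 1.97% at day 0 and 0.592% at day 7. Cluster 5 was broader, from 1.42% to 36.1% of a cell's UMIs at day 0 and from 0.356% to 15.6% at day 7, with medians of 5.35% and 1.28%, so the 2 days overlapped. Over all 754 cells no mitochondrial-encoded gene had more than 8.04% of its UMIs in 1 cell. Within cluster 5 at day 7, however, the richest cell, found for each gene apart, held 76.2% of the UMIs of mt-nd2. For mt-co3 and mt-atp6 it held 54.7% and 34.2%.

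All 4 complexes with mitochondrial-encoded subunits were lower at day 7. In cluster 0 the mt-nd genes, the subunits of complex I that form its membrane arm, stood at 0.237 times their day 0 level, cytochrome b of complex III at 0.276 times, the mt-co genes that form the catalytic core of complex IV at 0.263 times, and the membrane subunits mt-atp6 and mt-atp8 of complex V at 0.287 times. In cluster 1 the same complexes stood at 0.256, 0.421, 0.306 and 0.273 times. In cluster 5 they stood at 0.246, 0.155, 0.323 and 0.469 times, and at 0.176, 0.217, 0.245 and 0.372 times when each gene's richest cell of each day was left out.

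Single genes varied around these sums. In cluster 0, mt-nd4, a proton-pumping subunit of complex I, stood at 4096 CPM at day 0, 1302 CPM at day 3 and 976 CPM at day 7. The catalytic subunit mt-co1 stood at 1261, 1644 and 494 CPM, with its highest value at day 3. That day 3 group had 16 cells. Among mitochondrial-encoded genes with at least 20 UMIs there, the richest cell held a median of 27.9% of a gene's UMIs. In cluster 5, mt-cyb was 16953 CPM at day 0 and 2624 CPM at day 7. The gene of the copper-binding subunit of complex IV, mt-co2, was at 6891 and 894 CPM, a difference of 7.71-fold (6.10 to 9.82). The smaller differences in cluster 5 were those of mt-atp6, at 16699 and 7793 CPM, of mt-co3, at 8751 and 4421 CPM, and of mt-atp8. Without its richest cell over both days, which was a day 7 cell, mt-co3 was lower at day 7 by 2.09 on the log2 scale. On the same basis mt-nd2 was lower by 3.36, with a day 0 cell kept that held 37.4% of its day 0 UMIs. With all cells these values were 0.98 and 1.35. Gene by gene, the day 7 level was 2.25 to 5.03-fold lower in cluster 0, 1.80 to 11.3-fold lower in cluster 1 and 1.5 to 13.1-fold lower in cluster 5. The upper ends in clusters 1 and 5 rested on few UMIs. In cluster 1 mt-nd3 had 16 UMIs at day 0 and 1 at day 7, and in cluster 5 mt-nd6 had 6 and 1. Among genes with at least 20 UMIs over both days, the largest differences were 5.99-fold for mt-nd2 in cluster 1 and 7.71-fold for mt-co2 in cluster 5.

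For counts of genes, a gene was measured in a comparison when it had at least 20 UMIs over both groups, and was counted as past 2-fold on log2 ratios with 10 CPM added, which understate differences of low genes. In cluster 0 all 13 mitochondrial-encoded genes were past 2-fold lower at day 7, where 11.4% of all measured genes were. In cluster 1, 11 of 12 were, against 16.1% of all measured genes, and in cluster 5, 9 of 11, against 12.2%. Of the nuclear members of cluster 0, 8 of 81 were past 2-fold higher and 9 lower, against 12.3% and 11.4% of all genes. In cluster 1, 8 of 75 were higher and 14 lower, against 13% and 16.1%. In cluster 5, 14 of 79 were higher and 4 lower, against 20.5% and 12.2%. The nuclear shares were thus near or below those of all genes in these 3 comparisons.

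**Figure D2:**
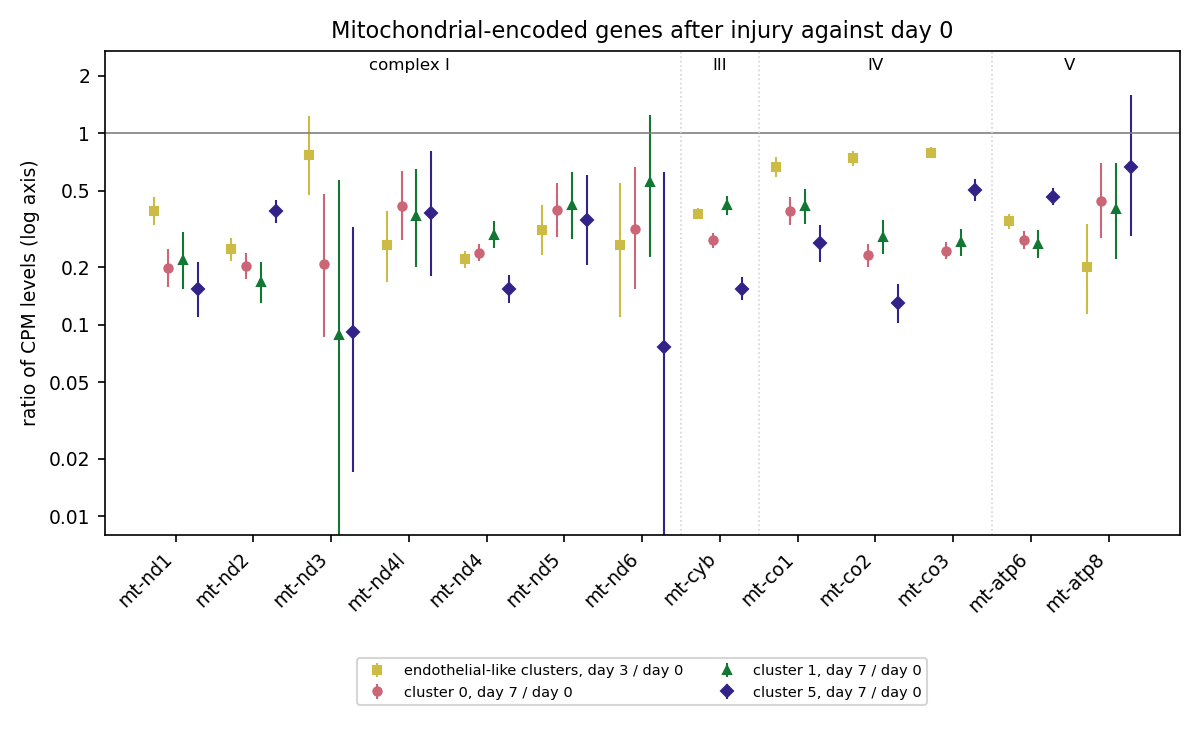
Ratio of the level of each of the 13 mitochondrial-encoded genes after injury to its level at day 0 (log axis, 1 is no difference), at day 7 for clusters 0, 1 and 5 and at day 3 for the pooled endothelial-like clusters, with exact 95% counting intervals. Every point lies below 1. At day 3 mt-co1, mt-co2, mt-co3 and the complex I gene mt-nd3 lie nearer to 1 than mt-nd4 or mt-cyb. The lower interval ends of mt-nd3 in cluster 1 and of mt-nd6 in cluster 5 run past the axis.

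Cardiomyocyte marker RNA also differed between the days in cluster 0. It was lowest at day 3, as was the nuclear sum, whereas the mitochondrial-encoded sum was lowest at day 7. The nuclear sum was alike at days 0 and 7, while the markers were lower at day 7. In cluster 0 the 27 markers summed to 45093 CPM at day 0, 14998 CPM at day 3 and 26258 CPM at day 7, with myoglobin (mb) alone at 24531, 13530 and 13852 CPM. Myoglobin was thus no lower there than in cluster 5, where it stood at 23759 CPM at day 0 and 7609 CPM at day 7. In cluster 1 the markers summed to 6678 and 7151 CPM at days 0 and 7. Of this tpm4a gave 1496 and 3174 CPM. In contrast myl7 stood at 1888 and 1575 CPM, cmlc1 at 911 and 759 CPM and mb at 1619 and 665 CPM. Some low markers also rose, such as actc1a at 79.8 and 184 CPM. No reckoning below left out tpm4a, so the cluster 1 values depend on it. If the marker RNA in a group is taken as cardiomyocyte RNA at the ratios seen in cluster 5, it would account for 80.6% of the mitochondrial-encoded UMIs of cluster 0 at day 0 and 65.7% at day 7, and for 13.9% and 17.6% of those of cluster 1. With mb left out of the markers the values for cluster 0 were 42.3% and 32.8%. With the amount taken off, the day 7 level in cluster 0 was lower by 1.11 on the log2 scale, and by 1.72 with mb left out, against 1.94 as measured. For the nuclear members of cluster 0 the same reckoning gave 119% at day 0 and 106% at day 7, more than was observed, and 62.6% and 52.8% with mb left out. Whether free cardiomyocyte RNA contributes to the levels in the other clusters was not tested beyond this.

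Day 3 could be compared with day 0 in the endothelial-like clusters only. These held different clusters at each day: cluster 2 gave 86 of the day 0 cells and 3 of the day 3 cells, whereas clusters 3 and 6 gave 8 of the day 0 cells and 94 of the day 3 cells. Over the pooled endothelial-like clusters the mitochondrial-encoded genes summed to 25711 CPM at day 0, 11455.5 CPM at day 3 and 6515 CPM at day 7. The day 3 level was 0.446 times that of day 0 (0.432 to 0.460), and 9 of the 13 genes were past 2-fold lower, against 15.2% of all genes measured. The complexes were unequal at day 3: complex I stood at 0.260 times the day 0 level (0.243 to 0.278), complex V at 0.342 (0.312 to 0.373), complex III at 0.381 (0.355 to 0.409) and complex IV at 0.754 (0.718 to 0.792). With each gene's richest cell left out of every cluster and day, these values were 0.255, 0.244, 0.366 and 0.688. Complexes I and V were then alike, and complex IV was still the least reduced. At day 7 the complexes, in the same order, were close to each other again, at 0.223, 0.262, 0.259 and 0.278 times the day 0 level. All 13 genes were then past 2-fold lower, against 11.8% of all genes. Of the nuclear members at day 7, 8 of 85 were past 2-fold higher and 9 lower, against 8.57% and 11.8%.

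The mt-co genes accordingly took a larger share of mitochondrial-encoded UMIs at day 3. In the pooled endothelial-like clusters mt-co1, mt-co2 and mt-co3 held 29.5% of them at day 0 (28.7 to 30.2), 49.8% at day 3 (48.5 to 51.1) and 32.3% at day 7 (31.1 to 33.6). Each of the 3 day 3 groups was above every group of the other days: cluster 0 at 46.3%, cluster 3 at 44.6% and cluster 6 at 60.3%, against 25.3% to 32.1% in all groups of days 0 and 7. Cluster 0 alone, which had cells on all 3 days, gave 31.8%, 46.3% and 32.1%. Medians over cells were 30.7% for cluster 0 at day 0 and 50.5%, 48.5% and 50.4% for clusters 0, 3 and 6 at day 3. By gene, mt-co3 of the pooled clusters stood on days 0, 3 and 7 at 3810, 3023 and 1017 CPM, and mt-co2 at 2398, 1774 and 575 CPM. In contrast mt-nd4 was at 4405, 967 and 979 CPM, with its day 3 and day 7 levels alike. The cardiomyocyte markers summed to 48321, 8816 and 24171 CPM in these pooled cells, lowest at day 3. Cardiomyocyte RNA was taken off at cluster 5's ratios, with those of day 0 used for day 3, when that cluster had no cells. Mitochondrial-encoded UMIs per marker UMI in cluster 5 were 0.442 at day 0 and 0.162 at day 7. With that RNA taken off, the mitochondrial-encoded sum at day 3 was 0.80 above that of day 0 on the log2 scale. It was 1.17 below as measured, and 0.55 below with mb left out of the markers. The direction from day 0 to day 3 in these pooled cells thus turned on how myoglobin RNA was treated.

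The nuclear members of the pooled endothelial-like cells stood at 21014 CPM at day 0, 18849 CPM at day 3 and 23020 CPM at day 7. The day 3 ratio to day 0 was 0.897 (0.872 to 0.922), and 61 of the 84 measured members were lower, with a median log2 ratio of -0.36. Past 2-fold, 6 were higher and 13 lower, against 13.6% and 15.2% of all genes. Complex I stood at 0.699 times its day 0 level and complex V at 0.799, whereas complexes III and IV stood at 1.27 and 1.03. Within cluster 0 alone the nuclear members were lower at day 3, at 13464 CPM against 21921 CPM. The day 3 value came from 16 cells. Among nuclear members with at least 20 UMIs there, the richest cell held a median of 35.6% of a gene's UMIs. Cluster 3 at day 3 had 24517 CPM and cluster 6 had 15268 CPM, so the pooled value hides a spread between clusters. With cardiomyocyte RNA taken off, mb left out of the markers, the pooled nuclear sum was 1.21 higher at day 3 on the log2 scale, against 0.16 lower as measured. The complex III value rested on 2 cells rich in uqcrb, a small subunit of that complex, which stood at 2439 CPM in cluster 0 and 1341 CPM in cluster 6 at day 3, and at 134 and 159 CPM without the richest cell of each. With each gene's richest cell left out of every cluster and day, complex III stood at 0.656 times its day 0 level and complex IV at 0.765 times, so neither remained above 1. The nuclear sum then stood at 0.696 times its day 0 level.

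Among single nuclear members the day 3 order was led by uqcrc1, a core subunit of complex III, at 11.8 CPM on day 0 and 92.0 CPM on day 3, and by COX7A2 (2 of 2), a complex IV subunit gene, at 298 and 1431 CPM. The log2 ratios were 2.23 and 2.22, and 2.05 and 1.40 without each gene's richest cell over both days. The second difference rested on 2 cells, of which the value of 1.40 left out only that of cluster 3. At day 3 COX7A2 (2 of 2) stood at 1690 CPM in cluster 3 and 1713 CPM in cluster 6. Without the richest cell of each cluster it stood at 196 and 134 CPM there, below the 298 CPM of day 0. The lowest ratio was that of cox7a1, the gene named after the muscle isoform of mammals, at 224 CPM on day 0 and 36.8 CPM on day 3, followed by mt-nd4 and by cox5b2 at 175 and 34.8 CPM. The 2 clusters that held most day 3 endothelial-like cells differed. Nuclear members stood 1.61-fold higher in cluster 3 than in cluster 6 (1.53 to 1.68). Past 2-fold, 42 of 73 were higher and 4 lower, against 23.4% and 18.4% of all genes. The 4 were uqcrb, atp5g1, atp5e and cox7c, with 79.0% to 93.4% of their cluster 6 UMIs in 1 cell. Without each gene's richest cell they were higher in cluster 3, by 0.66, 1.80, 1.52 and 0.95 on the log2 scale. Single cells of cluster 3 likewise held 97.7% of the ndufa4 and 82.6% of the atp5o UMIs there. The 1.61-fold value was not recomputed without such cells. The cardiomyocyte markers were also higher in cluster 3, at 10245 CPM against 2348 CPM, mostly through mb at 8492 and 854 CPM. With mb left out they stood at 1753 and 1494 CPM. At the day 0 ratios of cluster 5 these would account for 4.77% and 6.53% of the nuclear UMIs. The part of the markers in the difference between the clusters was not tested.

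At days 0 and 7 the cardiomyocyte-like cells gave a larger share of their UMIs to the members of both genomes than any other group compared. At day 0 the nuclear members of cluster 5 stood 4.77-fold above cluster 0 (4.57 to 4.97) and 4.87-fold above cluster 1. At day 7 they stood 5.84-fold (5.70 to 5.98) and 5.86-fold above them. Past 2-fold higher were 67 of 74 measured members against cluster 0 at day 0, where 21.8% of all genes were, and 71 of 83 at day 7, where 18% were. Past 2-fold lower were 3 of the 74 and 1 of the 83, against 42.8% and 34.1% of all genes. Against cluster 1 the counts were 69 of 77 and 70 of 78, against 19.2% and 23.7% of all genes, with 4 and 1 lower, against 44.7% and 34%. Cluster 5 was deposited as a cluster of the same cells, so its separation from the others used these genes too, and the counts describe it without testing it. The mitochondrial-encoded genes stood 3.22-fold (3.09 to 3.36) above cluster 0 at day 0 and 3.62-fold (3.45 to 3.81) at day 7, and 3.75-fold and 3.56-fold above cluster 1.

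**Figure D3:**
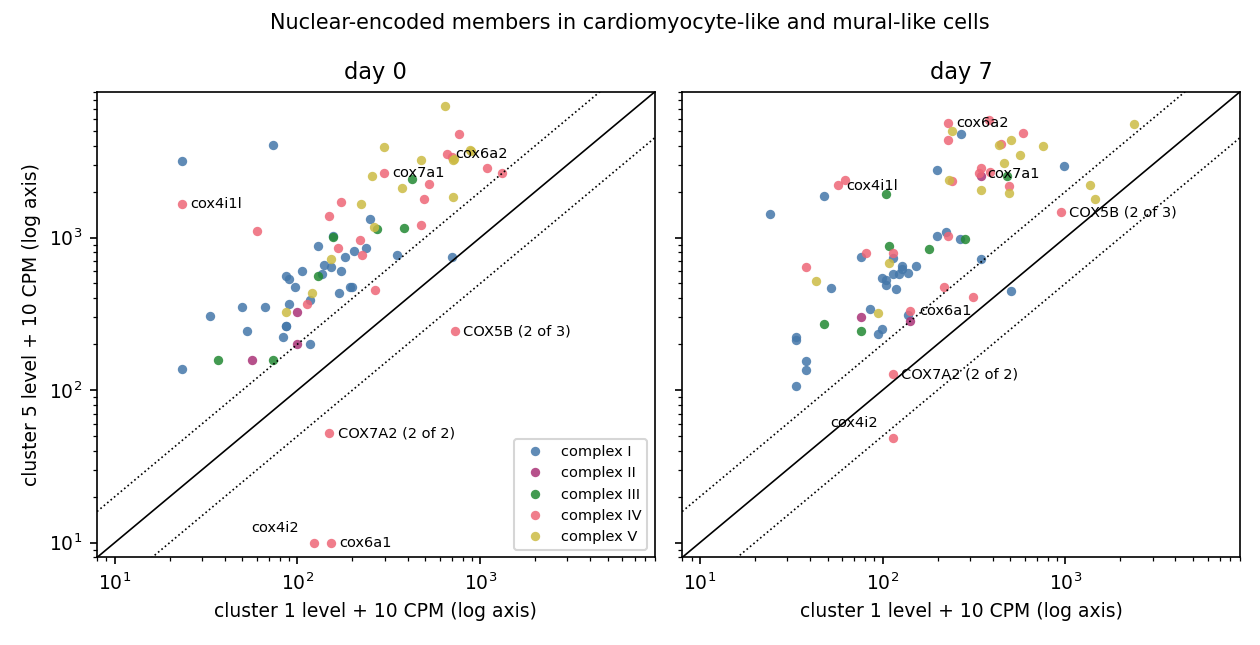
Level of each nuclear member with at least 100 UMIs over all cells in the cardiomyocyte-like cluster 5 (y axis) against the mural-like cluster 1 (x axis), in CPM with 10 added on log axes, at day 0 and day 7, coloured by complex; the solid line marks equal levels and the dotted lines 2-fold either way. Most points lie above the upper dotted line, among them cox7a1 at 2642 against 286 CPM at day 0, while cox4i2 lies below the lower one on both days.

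The nuclear members of every complex were higher in sum. At day 0 complex I stood 5.29-fold above cluster 0, complex II 3.21-fold, complex III 5.00-fold, complex IV 4.17-fold and complex V 5.11-fold. At day 7 these values were 6.01, 12.4, 5.29, 6.5 and 5.03-fold. Complex II, the succinate dehydrogenase that links the tricarboxylic acid cycle to the chain, owed its day 7 value mainly to sdhb, the gene of its iron-sulfur subunit. This gene was at 190 CPM at day 0 and 2517 CPM at day 7 in cluster 5. Its log2 ratio between the days was 3.66 with all cells and 0.89 without its richest cell, a day 7 cell.

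Of 72 nuclear members measured in all 4 comparisons of cluster 5 with clusters 0 and 1, 54 were past 2-fold higher in all 4. This compares with 18.1% of all genes measured in all 4. With each gene's richest cell over both groups left out of each comparison, 56 of the members were. The highest ratios to cluster 0 at day 0 were those of ndufv1, the NADH-binding subunit of complex I, at 7.29 on the log2 scale, of ndufc2 at 5.10 and of atp5f1, a stator subunit of complex V, at 3.68. Without each gene's richest cell over both groups these were 2.59, 1.55 and 1.90. At day 7 they were those of NDUFC1 at 5.63, cox5b2 at 4.87 and uqcrq at 4.64, or 2.80, 4.44 and 3.02 without the richest cells. These members thus stayed past 2-fold higher without those cells, though by less.

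Of the 18 members that were not past 2-fold higher in all 4 comparisons, 7 belonged to complex IV, 6 to complex I, 4 to complex V and 1 to complex II. Those outside complex IV included ndufb5, at -0.50 on the log2 scale against cluster 0 at day 0, and ndufa8, at -0.28 against it at day 7. Each had its richest cell in cluster 0, and without that cell these values were 1.72 and 0.93. The paralogs of complex IV are given here by subunit. In mammals COX6A2 and COX7A1 are the striated muscle forms of a pair of small subunits, and COX4I2 is a form of subunit 4 found mainly in lung and induced by low oxygen. In cluster 5, cox6a2 stood at 3509 CPM at day 0 and 5607 CPM at day 7, against 446 and 687 CPM in cluster 0 and 645 and 217 CPM in cluster 1. The level of cox7a1 was 2642 and 2624 CPM in cluster 5, 210 and 100 CPM in cluster 0 and 286 and 325 CPM in cluster 1, so it was 8.06 to 26.3-fold higher in cluster 5. The subunit 4 gene cox4i1l stood at 1649 and 2186 CPM in cluster 5 against 159 and 181 CPM in cluster 0 and 13.3 and 47.2 CPM in cluster 1. Its paralog cox4i2 went the other way. It had 0 UMIs in cluster 5 at day 0, which allows up to 78.0 CPM, and 38.9 CPM at day 7, against 174 and 272 CPM in cluster 0 and 113 and 104 CPM in cluster 1. Of the 272 CPM in cluster 0 at day 7, a single cell gave a large part, and 119 CPM were left without it. It was the only one of the 72 members that was lower in cluster 5 in all 4 comparisons.

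The most abundant nuclear member of each complex was likewise higher in cluster 5 than in clusters 0 and 1 on both days. The gene of the ring subunit, atp5g3b, stood at 3720 and 5558 CPM in cluster 5 at days 0 and 7, against 774 and 1785 CPM in cluster 0 and 871 and 2358 CPM in cluster 1. The cluster 1 value at day 7 was 1014 CPM without its richest cell. For cox6b2, a subunit at the dimer interface of complex IV, cluster 5 stood at 2621 and 4820 CPM, or 2482 and 2181 CPM without the richest cells, against 1056 and 708 CPM in cluster 0 and 1310 and 575 CPM in cluster 1. For uqcrb these levels were 2410 and 2536 CPM, 590 and 369 CPM, and 412 and 467 CPM. The accessory complex I gene ndufb8 stood at 846 and 4752 CPM in cluster 5, or 763 and 1900 CPM without the richest cells, and at 226 to 666 CPM in clusters 0 and 1. The complex II anchor gene sdhdb was low in both, at 148 and 292 CPM in cluster 5 and 46.5 to 81.1 CPM in clusters 0 and 1. Its ratio to cluster 0 at day 0 was 2.22-fold, with an interval of 0.750 to 5.99 that includes equal levels. Of all its UMIs 60.1% lay in 1 cell of cluster 4.

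Other complex IV paralogs were lower in the cardiomyocyte-like cells than in cluster 0 on at least 1 day with all cells counted. The gene cox6a1, named after the form of most tissues in mammals, had 0 UMIs in cluster 5 at day 0 and stood at 321 CPM at day 7, against 154 and 197 CPM in cluster 0. COX7A2 (2 of 2) stood at 42.3 and 117 CPM in cluster 5 against 302 and 214 CPM in cluster 0. The gene cox8a stood at 444 and 398 CPM against 851 and 268 CPM, of which 203 and 363 CPM against 104 and 201 CPM were left without the richest cells, so that it then stood higher in cluster 5 on both days. COX5B (2 of 3) was at 233 CPM in cluster 5 at day 0, against 267 CPM in cluster 0. That ratio was 0.872, with an interval of 0.410 to 1.69 that includes equal levels. At day 7 this gene was higher in cluster 5, at 1458 CPM against 479 CPM in cluster 0, or 3.04-fold (2.49 to 3.70). It was highest in the fibroblast-like cluster 4 at 2916 CPM, or 1711 CPM without its richest cell. The intervals of cox6a1 and COX7A2 (2 of 2) between clusters 5 and 0 at day 0 did not include equal levels.

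Read as shares of a paralog set, the difference was one of composition as well as amount. With the richest cell of each gene left out in each group, cox6a2 held 100% of the cox6a UMIs in cluster 5 at day 0 and 93.8% at day 7, against 75.9% and 65.1% in cluster 0. In the fibroblast-like cluster 4 it held 11.4%. The share of cox7a1 in the cox7a set was 69.1% and 61.3% in cluster 5 and 24.0% and 16.03% in cluster 0. In cluster 0 at day 3 cox7a1 held 3.13%, a value from 16 cells with few of its UMIs. In the mural-like cluster 1 cox7a1 held 43.6% and 55.7%, between clusters 5 and 0. For subunit 4, cox4i1l held 47.5% and 53.5% of the cox4 UMIs in cluster 5, 13.95% and 22.5% in cluster 0 and 1.18% and 6.42% in cluster 1. The share of cox4i2 in that set was 0% and 0.787% in cluster 5, and between 15.8% and 18.0% in clusters 0 and 1. For the proton-carrying ring subunit of complex V, atp5g1 held 34.8% and 44.1% of the atp5g UMIs in cluster 5, 28.8% and 17.0% in cluster 0 and 19.3% and 16.1% in cluster 1. The cox8b gene, named after a muscle form of mammals, held 76.3% and 53.9% of the cox8 UMIs in cluster 5, 55.6% and 38.0% in cluster 0 and 45.4% and 44.4% in cluster 1. That set was small, with 38 UMIs left in cluster 5 at day 0.

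**Figure D4:**
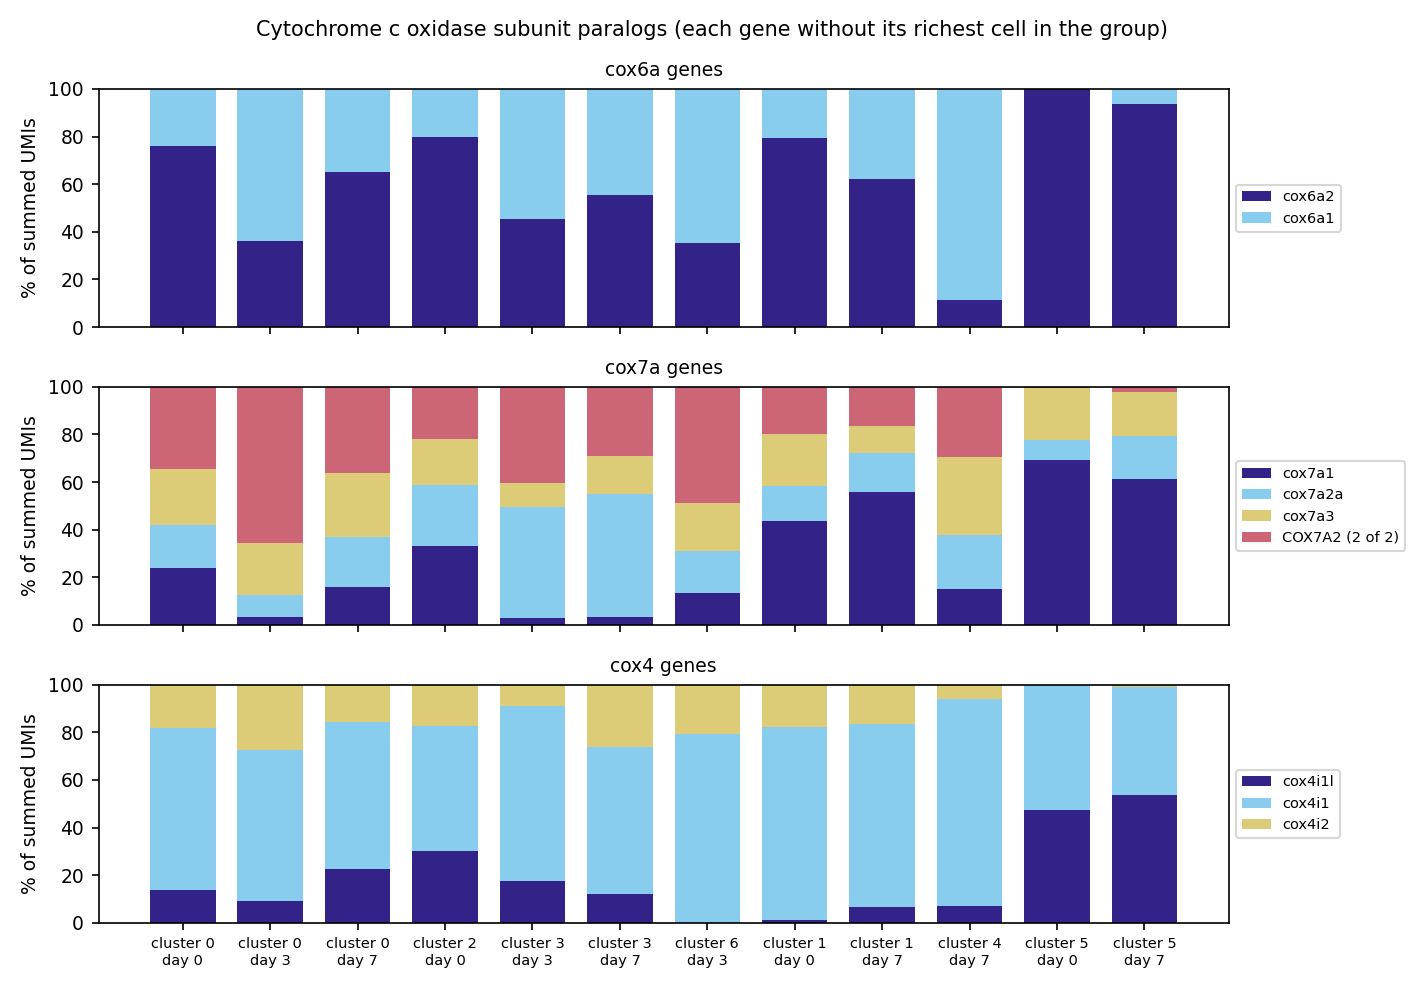
Percent of the summed UMIs of each paralog set held by each gene, by cluster and day, with each gene's richest cell in the group left out. In cluster 5 cox6a2 takes 100% and 93.8% of its set and cox7a1 69.1% and 61.3%. At day 3 cox7a1 takes 3.13% in cluster 0, a group of 16 cells with few cox7a1 UMIs.

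Between days within cluster 5 the paralogs and complexes were less even than the sum. The median log2 ratio of day 7 to day 0 over the 79 measured nuclear members was 0.29 with all cells. It was 0.00351 without each gene's richest cell over both days. The highest ratios were those of cox6a1 at 5.05, sdhb at 3.66 and COX5B (2 of 3) at 2.60, of which cox6a1 and COX5B (2 of 3) were at 4.64 and 2.52 without the richest cells. The lowest was that of ndufv1 at -4.88, which was -0.19 without them. Among the mitochondrial-encoded genes with at least 20 UMIs over both days, mt-co2 had the lowest ratio at -2.93. The next were mt-cyb, mt-nd4 and mt-nd1, alike at -2.69, -2.69 and -2.68. Without each gene's richest cell over both days these 4 values were -2.50, -2.12, -2.31 and -2.33. On that basis mt-nd2, whose richest cell was a day 7 cell, was lowest at -3.36.

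The remaining clusters that were compared differed less. Cluster 3 at day 7, with 22 cells, was not compared with cluster 0, and its nuclear members held 3246 of its 92552 UMIs. At day 0 the endothelial-like clusters 2 and 0 were alike, with a nuclear ratio of 0.948, a mitochondrial-encoded ratio of 1.08, and 0 of 76 nuclear members past 2-fold higher and 4 lower, against 13.2% and 7.46% of all genes. The mural-like cluster 1 stood at 0.979 times cluster 0 for the nuclear members at day 0 and 0.997 times at day 7. Of its nuclear members 8 of 75 were past 2-fold higher and 8 lower at day 0, against 24.3% and 18.5% of all genes, and 6 of 81 and 12 at day 7, against 18.4% and 23.7%. In the fibroblast-like cluster 4 the nuclear members stood 1.34-fold above cluster 0 at day 7 (1.30 to 1.38), with 17 of 82 past 2-fold higher and 7 lower, against 23% and 21% of all genes. The highest ratio there, 4.27 on the log2 scale for sdhdb, was 0.18 without its richest cell over both clusters. The next was that of COX5B (2 of 3) at 2.58, or 1.81 without its own richest cell. The lowest was that of cox6a2 at -2.86, or -1.92.

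Single cells with very many UMIs of 1 nuclear member ran through these values. Of the 94 members with at least 100 UMIs, 12 had over 30% of all their UMIs in 1 cell, and those were 11 different cells. The highest shares were 85.8% for sdhaf3, 65.7% for uqcrc2b, 63.2% for ndufv1 and 60.1% for sdhdb. In 1 cell ndufa8 alone had 312 UMIs, or 13% of the cell's total. In cluster 0 the high day 7 ratios of uqcrc2b, atp5a1 and ndufa8 were 3.68, 2.2 and 1.88 on the log2 scale. Without each gene's richest cell over both days they were 0.33, 0.29 and 0.67. In cluster 1 those of atp5d and ndufab1a, at 2.71 and 2.39, were 1.54 and -0.33. Between clusters 3 and 6 at day 3 the highest ratio, that of ndufa4 at 5.68, was 0.72, and the lowest, that of uqcrb at -2.34, was 0.66.

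The lists of neighbouring pathways gave a partly different picture. Against cluster 0 at day 0, cluster 5 had 5 of 5 measured genes of the tricarboxylic acid cycle, 8 of 12 of glycolysis and 6 of 6 assembly factors of the respiratory complexes past 2-fold higher, against 21.8% of all genes, with summed levels 4.08, 4.93 and 3.07-fold higher. At day 7 the counts were 7 of 7, 11 of 15 and 8 of 12, against 18%. The glycolysis list was thus higher in cluster 5 by about as much as the nuclear members. Between days 0 and 7 in cluster 0, 0 of 6 genes of the tricarboxylic acid cycle were past 2-fold either way, as were 2 of 15 of glycolysis, both higher, against 12.3% of all genes higher and 11.4% lower. At day 3 in the pooled endothelial-like cells the summed levels of the 3 lists stood at 0.530, 0.605 and 0.514 times day 0, with 2 of 11, 5 of 15 and 5 of 13 genes past 2-fold lower, against 15.2% of all genes. The nuclear members stood at 0.897 times, or at 0.696 times with each gene's richest cell left out of every cluster and day. The 3 lists were not recomputed in that way.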

How the data were processed

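Single-cell libraries were processed with Cell Ranger on GRCz10, per the submitters' processing notes. The authors deposited a table of natural log values, ln of 1 plus UMIs scaled to 10000 per cell, with UMI and gene counts per cell and cluster numbers at resolutions 0.4 and 0.3, per the file headers. UMIs were recovered from the natural log values and the deposited counts per cell, and all 497895 values above 0 came out whole within 0.001. The deposited mitochondrial percent was 0 in all 754 cells and was not used. Cells were taken as deposited, with at least 2004 UMIs each; doublets were not called here. UMIs were summed by cluster and day and scaled to CPM, with exact Poisson intervals, exact 2-Poisson intervals for ratios and Clopper-Pearson intervals for shares. Python 3.11.15, numpy 2.4.6, scipy 1.17.1, pandas 2.3.3 and matplotlib 3.10.9 were used, and the ratios were tested on simulated counts. Members and lists were chosen with earlier results of these data known, and the sets of paralogs were completed after values were seen. Genes were named as mt-nd4 and mt-co1, the nuclear member of each complex with most UMIs, paralogs with at least 100 UMIs, and the 3 highest and 3 lowest log2 ratios of a comparison; the others are given by range or count, and other mitochondrial-encoded genes were named after their values were seen. Of the 114 symbols, 93 matched the name tables. Alternatives covered the pseudocount, the UMI minimum, the scaling, means or medians over cells, the richest cell, coarser clusters and the removal of cardiomyocyte RNA. Sequences were not used here.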

Additional observations from a re-analysis of the deposited data

Results flagged for a closer look

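Between days 0 and 7 the summed nuclear members of complex III stood at 0.848 times the day 0 level in the mural-like cluster 1 and at 1.15 times in the cardiomyocyte-like cluster 5. With each gene's richest cell of each day left out, these ratios were 0.892 and 0.948, so both clusters were then lower at day 7. The summed nuclear members of complex IV stood at 0.894 times in the endothelial-like cluster 0 and 0.677 times in cluster 1, against 1.40 times in cluster 5, and at 0.946, 0.750 and 1.31 times without those cells. Single cells gave a large part of the cluster 5 levels of cox6b2, cox4i1, cox5ab and cox6a2 at day 7. Without each gene's richest day 7 cell alone, the log2 ratios of these genes to day 0 were -0.26, -0.04, -0.37 and 0.07. With 1 library per day these differences between clusters were not tested.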

How the results depend on the processing

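No paired analysis was possible because each day had 1 library and no result came from a test. Of 52 alternatives for summed ratios, 20 stayed within counting error, 30 moved and 2 reversed; of 96 for medians and counts, 91 stayed and 5 moved. Values are log2 ratios unless called counts, and another denominator means one without mitochondrial-encoded, cardiomyocyte marker and globin genes. For cluster 5 against cluster 0 at day 0, the nuclear value of 2.25 was 2.17 without the richest cell and 2.56 with another denominator, and the median of 2.11 was 2.78 under median-of-ratios scaling. Its count of 3 members past 2-fold lower was 5 with no UMI minimum and 1 with at least 50 UMIs. The mitochondrial value of 1.69 was 1.80 as a mean over cells, 1.47 without the richest cell, 2.00 with another denominator and 1.91 against cluster 1, and its median of 1.52 was 2.19 under that scaling. For day 7 against day 0 in cluster 0, the nuclear value of -0.00094 was -0.075 with another denominator, -0.055 as a median over cells, 0.058 with coarser clusters and 0.34 with cardiomyocyte RNA without mb taken off. The mitochondrial value of -1.94 was -1.81 without the richest cell, -2.01 with another denominator, -1.76 as a median over cells, -1.11 with cardiomyocyte RNA taken off and -1.72 with mb left out of it. In cluster 1 the nuclear value of 0.025 was -0.13 without the richest cell, -0.18 and -0.20 with cardiomyocyte RNA taken off with and without mb, and -0.20 as a median over cells; the mitochondrial value of -1.69 moved under none. For endothelial-like cells at day 3 against day 0, the nuclear value of -0.16 was -0.088 as a mean over cells, -0.38 without the richest cell, -0.25 with another denominator, -0.31 as a median over cells, -0.70 in cluster 0 alone and 1.21, reversed, with cardiomyocyte RNA without mb taken off; its count of 13 past 2-fold lower was 8 under median-of-ratios scaling. The mitochondrial value of -1.17 was -1.26 without the richest cell and -1.26 with another denominator, -1.42 as a median over cells, -0.78 in cluster 0 alone, -1.12 without the deepest day 3 cell, -0.55 with cardiomyocyte RNA without mb taken off and 0.80, reversed, with mb kept in it. The nuclear value with mb kept in could not be had in cluster 0 or in the endothelial-like cells, since the markers stood for more than was observed. Under median-of-ratios scaling all genes shifted by -0.67 and -0.50 between clusters 5 and 0 at days 0 and 7 and by -0.11 between days 3 and 0 in the endothelial-like cells. The alternatives without mb, as medians over cells, in cluster 0 alone, against cluster 1, without the deepest cell and by complex without the richest cells were chosen after the data were seen. Low members, at under 20 UMIs over both groups, were below what this depth can compare.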
